A study of Mus musculus with 4 samples.

Results

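Naive CD4 T cells were picked out of liver biopsies of mice on the FPC diet, a diet of fructose, palmitate, cholesterol and trans-fat that brings on steatohepatitis. Each cell was chosen by the transcripts counted under its barcode, as unique molecular identifiers (UMIs). A barcode was kept with at least 500 UMIs, at least 300 detected genes and at most 10% mitochondrial UMIs. It was called a naive CD4 T cell with at least 1 UMI over Cd3e, Cd3d and Trac, at least 1 of Cd4 and at least 1 of Lef1, and with no UMI of Cd8a, Cd8b1, Cd79a, Foxp3, Tnfrsf4, Rora or Izumo1r. This gate held 306 of the 26825 kept barcodes. The levels of these gate genes chose the cells and are not findings.

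All mice were male wild-type C57BL/6J, 7 weeks old at the start, and every group received the FPC diet. P-LC24 had 0.05% cholesterol in the diet and P-HC24 had 1.25%, both sampled at week 24, the end of the progression phase. I-LC32 stayed on 0.05% to week 32, and I-HC32 had 1.25% to week 24 and 0.05% for the 8 weeks of the intervention phase. Each library pooled 12 fine needle biopsies, 4 from each of 3 mice, and the mice of week 32 were those sampled at week 24. There was 1 library per condition, and the numbers of naive CD4 T cells were 79 for P-LC24, 50 for P-HC24, 98 for I-LC32, and 79 for I-HC32. Values are given in this order from here on. P-HC24 was compared with P-LC24 (Prog) and I-HC32 with I-LC32 (Int), without any test between conditions, and intervals cover counting error only.

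A naive CD4 T cell is a mature helper T cell that has left the thymus and has not yet met its antigen. It circulates between blood and lymphoid organs under CCR7 and the sphingosine phosphate receptor S1PR1, is held in a resting state by factors such as KLF2, FOXP1 and BTG1, and lives on interleukin 7 and weak contacts of its T cell receptor with self peptides. In the liver such cells pass mostly with the blood of the sinusoids, while activated and memory cells are retained.

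The UMIs of the 306 cells came to 611550, 355282, 635875 and 505687, with a median of 5645 to 7352 UMIs and 1941.5 to 2261 genes per cell. Between 17 and 41 barcodes were shared by any pair of libraries, and no shared barcode was a naive CD4 T cell in both libraries. Some barcodes held the RNA of another cell as well. In P-HC24, I-LC32 and I-HC32, 1 cell each carried 396, 1190 and 1140 UMIs of the macrophage genes Lyz2, C1qa, Csf1r and Adgre1, against at most 5 in any other naive CD4 T cell. These 3 barcodes supplied 8.63%, 9.09% and 7.29% of all UMIs of their libraries' naive CD4 T cells. Haemoglobin transcripts made up 18.0% to 68.5% of the UMIs of 7 more cells, namely 3, 1, 3 and 0 by library, and at most 2.88% elsewhere. Leaving out both kinds left 296 cells, and values without these mixed barcodes are given for a part of the results.

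The label was checked against Tcf7, Igfbp4 and Il7r, which the gate did not use. Tcf7 encodes the transcription factor TCF1 of naive and memory T cells, Igfbp4 an insulin-like growth factor binding protein typical of naive CD4 cells, and Il7r the alpha chain of the interleukin 7 receptor. A Tcf7 UMI was found in 88.6%, 86%, 80.6% and 72.2% of cells, against at most 1.77% of the B cells of any library, which should lack it. Igfbp4 was seen in 51.9%, 60%, 44.9% and 30.4% of the cells and in at most 0.934% of B cells. Il7r was seen in 98.7%, 92%, 88.8% and 98.7% of the cells and in at most 1.83% of B cells. All 3 markers were thus well above the level of free RNA, at median depths of 5645 to 7352 UMIs in naive CD4 T cells and 5899 to 8844 in B cells. Dapl1, another transcript of naive T cells, was found in 59.5%, 40%, 41.8% and 43.0% of the cells and in at most 0.239% of B cells. Lyz2 UMIs lay in 11.4%, 42%, 12.2% and 72.2% of naive CD4 T cells and in 8.97%, 50.6%, 11.99% and 72.8% of B cells, so in both cell types they were more frequent in P-HC24 and I-HC32. Of regulatory T cell markers, Ctla4 was found in 17.7%, 24%, 17.3% and 29.1% of cells, and Ikzf2 and Il2ra in at most 3.80% and 2.04%. Of effector and memory markers, Itgb1 was found in 7.59%, 14%, 15.3% and 15.2%, and S100a4, Maf and Cxcr3 in at most 10%, 7.14% and 2.04%. Cd44, an activation gene, was found in 10.1%, 10%, 14.3% and 17.7%. Cd69, another activation gene, was found in 58.2%, 62%, 50% and 51.9%. Tcf7, Igfbp4, Il7r and Dapl1 did not go against the label. Ctla4, Itgb1 and Cd44 were seen in a minority of cells, but Cd69 in 50% or more of every library.

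Cells just inside and just outside the gate were few. Those with a single Lef1 UMI numbered 2, 4, 9 and 4, and 6, 6, 9 and 9 barcodes missed the gate only by having no Lef1. In CPM, the level scaled to the total UMIs of the cells of a library, the former had 447, 197, 286 and 1009 of Ccr7 and 358, 354, 242 and 275 of Tcf7, and the latter 122, 125, 112 and 175 and 285, 41.8, 289.9 and 175. A further 15, 14, 40 and 35 barcodes missed it by 1 UMI of Tnfrsf4, Rora or Izumo1r, and these had 315, 339, 337 and 474 CPM of Ccr7 and 437, 208, 209 and 264 CPM of Tcf7.

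Trat1, Igfbp4 and Il7r are shown with the 250 bases before their start. Trat1 encodes an adaptor of the T cell receptor complex and, with Igfbp4, was higher in naive CD4 than in naive CD8 T cells, while Igfbp4 and Il7r were the check markers with the largest ratios between libraries. The sequences are those of RefSeq on build GRCm38.p6, written 5′ to 3′ on the gene's strand, whereas the counts were made on GRCm39. Capitals mark the letters CTTTGAT, the reverse complement of ATCAAAG, a core bound by TCF1 and LEF1.
Trat1 (chr16:48772063-48772312, minus strand): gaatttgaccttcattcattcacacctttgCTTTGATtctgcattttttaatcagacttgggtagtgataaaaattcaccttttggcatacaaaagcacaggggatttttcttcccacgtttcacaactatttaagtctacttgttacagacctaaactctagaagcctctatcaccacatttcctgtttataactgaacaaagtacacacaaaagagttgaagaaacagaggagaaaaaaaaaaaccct
Igfbp4 (chr11:99040994-99041243, plus strand): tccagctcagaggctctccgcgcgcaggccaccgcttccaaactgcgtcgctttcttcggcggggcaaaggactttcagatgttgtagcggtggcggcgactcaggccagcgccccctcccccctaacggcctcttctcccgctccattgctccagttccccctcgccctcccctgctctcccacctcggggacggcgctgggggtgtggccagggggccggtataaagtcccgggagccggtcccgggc
Il7r (chr15:9529877-9530126, minus strand): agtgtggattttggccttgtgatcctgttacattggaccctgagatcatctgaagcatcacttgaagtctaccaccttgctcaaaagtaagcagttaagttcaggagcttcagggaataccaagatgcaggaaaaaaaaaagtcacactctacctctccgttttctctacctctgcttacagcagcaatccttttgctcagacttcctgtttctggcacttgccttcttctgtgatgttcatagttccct
ATCAAAG was searched on both strands, and no other motif was. It lay in 1 of 10 genes of a CD4 lineage list with a window (Trat1), in 0 of 13 of a naive T cell list, in 0 of 24 of quiescence and survival and in 0 of 23 of the cytokine and homing receptors. Over all genes it lay in 1005 of 27025 (3.72%), and in 3.21% of all 32851 windows of this length.

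Naive CD4 T cells made up 1.54% (1.22 to 1.91), 0.723% (0.537 to 0.952), 1.32% (1.07 to 1.61) and 1.07% (0.852 to 1.34) of kept barcodes, with 95% exact Clopper-Pearson intervals in parentheses. The share was lowest in P-HC24, and the difference from P-LC24 was -0.813 percentage points (-1.23 to -0.434). In Int the difference was -0.246 percentage points (-0.602 to 0.106). Among T cells, which numbered 998, 1023, 1526 and 986, the shares were 7.92% (6.32 to 9.77), 4.89% (3.65 to 6.39), 6.42% (5.24 to 7.77) and 8.01% (6.39 to 9.89). P-HC24 was again lowest, with a difference of -3.03 percentage points (-5.20 to -0.895) in Prog, and in Int the difference was 1.59 percentage points (-0.450 to 3.77), of the opposite sign to that over kept barcodes. Over CD4 T cells the shares were 52.7% (44.4 to 60.9), 45.9% (36.3 to 55.7), 37.1% (31.3 to 43.3) and 31.6% (25.9 to 37.8). Both libraries of week 24 stood above both of week 32, and the intervals of the libraries of the same week overlapped. With every barcode thinned to 2000 UMIs the shares of CD4 T cells were 50.7%, 38.3%, 38.8% and 35.4%, so at equal depth P-HC24 no longer stood above I-LC32. Naive CD8 T cells, gated in the same way with Cd8a or Cd8b1 in place of Cd4, were 30.7%, 32.1%, 22.02% and 13.7% of T cells. They were lowest in I-HC32.

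**Figure D1:**
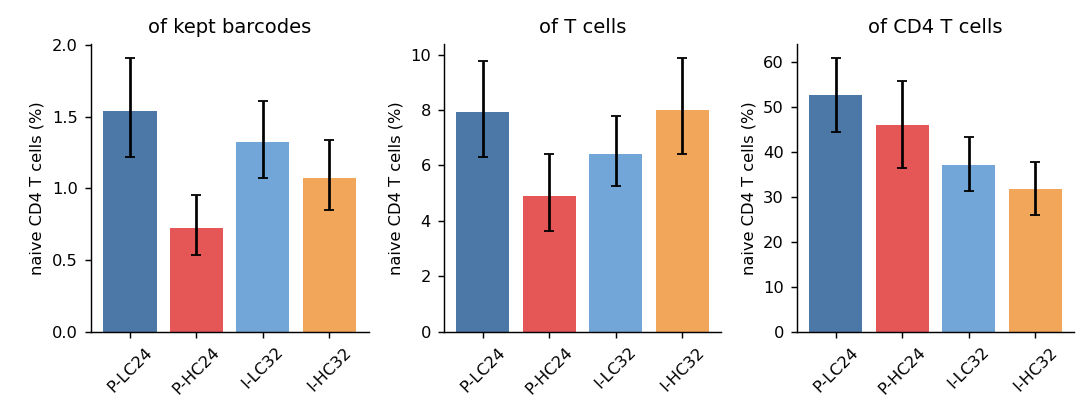
Share of naive CD4 T cells in percent of kept barcodes, of T cells and of CD4 T cells, by library; bars start at 0 and error bars are 95% exact Clopper-Pearson intervals, which cover counting error only. P-HC24 has the lowest share of kept barcodes (0.723%), and the share of CD4 T cells is 52.7% and 45.9% in the libraries of week 24 and 37.1% and 31.6% in those of week 32.

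The transcripts that keep naive cells in circulation differed between libraries in several patterns. Ccr7, the receptor for the chemokines of lymph node T zones, had 337, 363, 371 and 514 CPM. It was highest in I-HC32, and the log2 ratio of high over low cholesterol, with its 95% exact interval, was 0.11 (-0.22 to 0.43) in Prog and 0.47 (0.21 to 0.73) in Int. S1pr1, the receptor for exit into blood and lymph, had 383, 341, 211 and 350.0 CPM and was lowest in I-LC32. Tcf7 had 449.7, 366, 309.8 and 281 CPM, with both libraries of week 32 below both of week 24. Satb1, a chromatin organizer of T cells, had 1931, 1419, 1241 and 1713 CPM, and Bach2, a repressor that holds back effector genes, had 1514, 1188, 1529 and 1307 CPM. Summed levels of this kind cannot tell fewer expressing cells from less RNA per cell.

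Il7r had 1315, 771, 686 and 1505 CPM, high in P-LC24 and I-HC32 and low in the other libraries. The log2 ratio was -0.77 (-0.97 to -0.57) in Prog and 1.13 (0.96 to 1.31) in Int. The low cholesterol libraries of the same mice, 8 weeks apart, differed in Il7r about as much as the diets did. Igfbp4 had 177, 251, 253 and 85.0 CPM and log2 ratios of 0.50 (0.08 to 0.92) in Prog and -1.57 (-2.09 to -1.08) in Int. Without the mixed barcodes the Prog ratio of Igfbp4 was 0.67 (0.24 to 1.10), past 1.5-fold, and the Int ratio -1.61. I-HC32 stood below the other 3 libraries. Of the remaining naive T cell genes, Dapl1 had 224, 203, 209 and 178 CPM, Actn1, an actin crosslinker, 269.8, 166, 173 and 154 CPM and Txk, a kinase of the Tec family, 558, 355, 377 and 356 CPM, the last 2 highest in P-LC24.

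**Figure D2:**
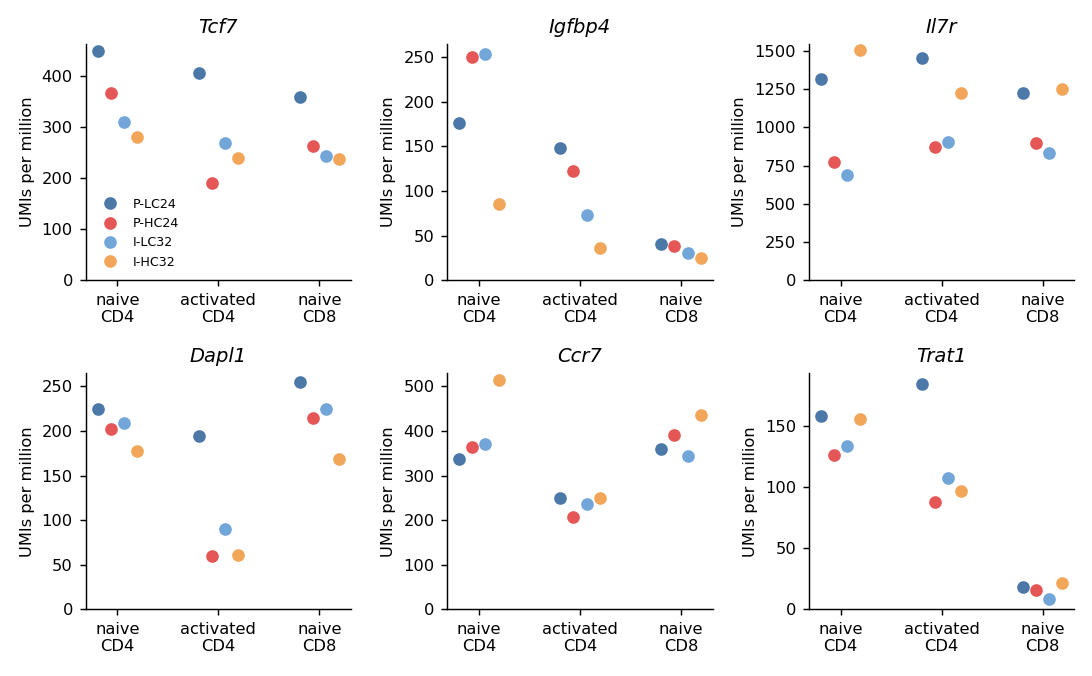
Levels in CPM of Tcf7, Igfbp4, Il7r, Dapl1, Ccr7 and Trat1 in naive CD4, activated CD4 and naive CD8 T cells of the 4 libraries; each point is the summed UMIs of 1 population in 1 library. Igfbp4 and Trat1 are lower in naive CD8 than in naive CD4 T cells in all 4 libraries, whereas Il7r is higher in P-LC24 and I-HC32 than in the other libraries in all 3 populations.

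Of 1265 genes compared in Prog, 84 (6.64%) were at least 1.5-fold higher and 243 (19.2%) at least 1.5-fold lower in P-HC24. In Int, 109 of 1663 genes (6.55%) were higher and 76 (4.57%) lower in I-HC32. In either direction that is 25.8% of the genes in Prog. Without the mixed barcodes 4.98% of 1144 genes passed upwards and 18.4% downwards in Prog, and 6.06% of 1486 higher and 4.04% lower in Int. Genes entered with 100 or more UMIs in the pair of libraries, seen in 10% or more of the cells of one of them. The size of these differences can be read against libraries that did not differ in diet. Between P-LC24 and I-LC32, both on 0.05% cholesterol and from the same mice, 166 of 1762 genes (9.42%) were at least 1.5-fold higher at week 32 and 127 (7.21%) lower, which is 16.6% in all against 11.1% in Int. Between P-HC24 and I-HC32, which differed in diet as well as in week, 233 of 1154 genes (20.2%) were higher at week 32 and 56 (4.85%) lower. Without the mixed barcodes, 108 of 1613 genes were higher and 108 lower between P-LC24 and I-LC32. That is 13.4% in all, against 10.1% in Int. Between P-HC24 and I-HC32, 165 of 1010 genes were then higher and 44 lower. P-HC24 stood apart most. Of 1313 genes with at least 200 UMIs over the libraries without the mixed barcodes, 102 lay at least 1.5-fold below all other libraries in P-HC24, 23 in P-LC24, 12 in I-HC32 and 3 in I-LC32. On the high side, 24 genes stood above the other libraries in I-HC32, 14 in P-LC24, 14 in I-LC32 and 5 in P-HC24. P-HC24 also had the fewest cells and UMIs here, with 48 cells and 309239 UMIs, against 468801 to 565303 UMIs in the others. The part of depth in these counts was not tested.

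Genes with lower levels in P-HC24 were mostly long ones. With the 1265 genes split into 3 equal groups by the length they span in the genome, the median log2 ratio in Prog was 0.20 for short genes (median span 6.09 kb), -0.15 for middle ones (37.1 kb) and -0.48 for long ones (138 kb). Of the long genes 163 were at least 1.5-fold lower and 6 higher, and of the short ones 12 were lower and 60 higher. In Int the medians were -0.01, 0.11 and 0.05. Activated CD4 and naive CD8 T cells had the same order in Prog, with 0.21, -0.14 and -0.54 and with 0.10, -0.20 and -0.39. Genes longer than 50 kb gave 24.4%, 18.8%, 23.8% and 25.4% of naive CD4 UMIs. Malat1, a nuclear RNA, had 13724, 10260, 12342 and 14024 CPM, and was lowest in P-HC24. The share of cells over 5% mitochondrial UMIs was 7.59%, 36%, 20.4% and 17.7%, and ribosomal protein genes gave 34.9%, 37.3%, 31.8% and 31.3% of UMIs. The part of RNA quality in the Prog differences was not tested. Relative to the median gene, which lay at -0.14, the Prog counts were 152 higher and 160 lower, and with ribosomal and mitochondrial genes left out of the scaling 129 and 186. After thinning to 2000 UMIs a barcode, 35 of 380 genes were higher and 51 lower, and the median turned to 0.05.

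**Figure D3:**
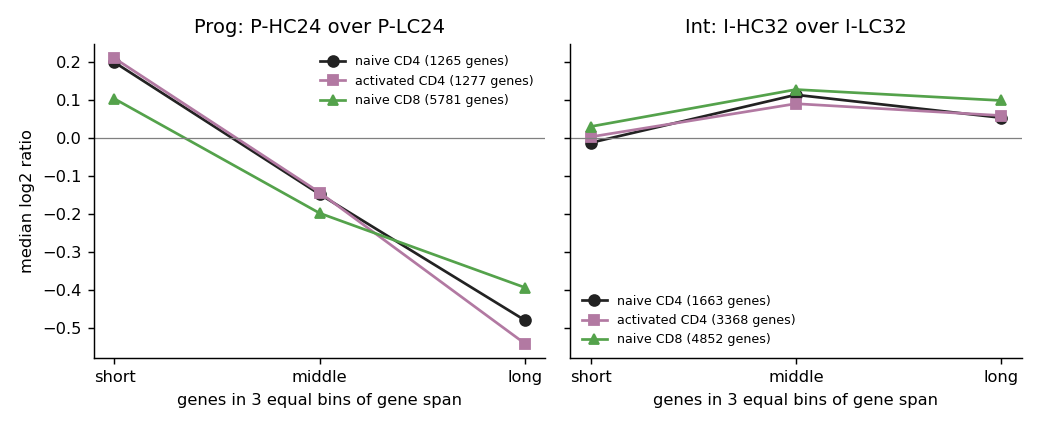
Median log2 ratio of high over low cholesterol (y axis) in 3 equal groups of genes by genomic span (x axis) for naive CD4, activated CD4 and naive CD8 T cells, Prog on the left and Int on the right. In Prog the median of naive CD4 T cells goes from 0.20 in short genes to -0.48 in long ones, and in Int it lies between -0.01 and 0.11.

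Among the genes with at least 200 UMIs that were lowest in P-HC24 relative to P-LC24 were signalling genes. Prkcq, the protein kinase C theta that acts below the T cell receptor and CD28, had 670.4, 245, 582 and 706 CPM and a Prog ratio of -1.45 (-1.80 to -1.12). P-HC24 stood alone below the other libraries. Ipcef1 had the lowest ratio, -1.67 (-2.18 to -1.18), with 366, 115, 162 and 184 CPM, and here P-LC24 stood alone above the others. Plcl2, a phospholipase C-like protein, had 265, 107, 203 and 182 CPM (-1.31), and Tnik, a kinase of the Wnt pathway, had 301, 124, 255 and 202 CPM (-1.28). Elmo1, which works with DOCK proteins in cell migration, had 659, 309.6, 568 and 581 CPM (-1.09). Atp10a, Cnot6l and Tmem71 had -1.18, -1.09 and -1.06. Without the mixed barcodes these 8 ratios lay between -1.52 and -1.004. Apart from Tmem71, the 8 genes belonged to the long group described above, which began at 77.5 kb. The part of gene length in their ratios was not tested. Prkcq was also lower in P-HC24 in activated CD4, at -1.004 (-1.32 to -0.70), and in naive CD8 T cells, at -0.66 (-0.78 to -0.54).

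Among the genes with at least 200 UMIs that had the highest ratios in Prog were myeloid genes and genes of the cytoskeleton. Fn1, fibronectin, and Lyz2, lysozyme, had 1.64, 692, 449.8 and 301 and 16.4, 923, 1607 and 2219 CPM, and without the mixed barcodes 1.77, 19.4, 5.42 and 38.4 and 17.7, 97.0, 19.9 and 198 CPM. The mixed barcodes thus held most of both in P-HC24, I-LC32 and I-HC32. Actg1, a cytoplasmic actin, had 406, 999, 1039.5 and 1248 CPM and a Prog ratio of 1.30 (1.06 to 1.54), or 1.15 without mixed barcodes. Tagln2, an actin-binding protein, had 170.1, 445, 472 and 694 CPM (1.39, or 0.93 without them), and Vim, the intermediate filament vimentin, 203, 450.3, 502 and 694 CPM (1.15, or 0.74). In Int, leaving out the mixed barcodes raised both ratios past 1.5-fold, from 0.47 to 1.23 (0.95 to 1.52) for Vim and from 0.56 to 0.81 (0.55 to 1.07) for Tagln2. Vim then had 219, 365, 285 and 669.8 CPM, with I-HC32 above the other 3 libraries. For all 3 genes P-LC24 was the lowest library. B cells had 1069, 2121, 1602 and 3174 CPM of Vim and were lowest there too. Their levels of Actg1 (523, 901, 1020 and 1132 CPM) and Tagln2 (454, 775, 732 and 1306 CPM) were likewise lowest in P-LC24. Crip1, a LIM domain protein, had 687, 1413, 1044 and 1266 CPM (1.04, or 0.85), and Ftl1, ferritin light chain, 553, 1196, 1187 and 1084 CPM (1.11, or 0.74). For Crip1, B cells had 2627, 4037, 2824 and 3653 CPM and were also lowest in P-LC24. Fos, an immediate early transcription factor, had 179.9, 422, 440.3 and 366 CPM (1.23, or 0.69).

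Beside Il7r, the genes at least 1.5-fold higher in I-HC32 than in I-LC32 included Bcl2, both chains of the interferon gamma receptor, Cdk6, Hif1a, Tnfaip8 and Tmem64. Bcl2, the survival factor that interleukin 7 maintains in naive T cells, had 1280.3, 1047, 1091 and 2268 CPM. The Int ratio was 1.06 (0.92 to 1.19), and I-HC32 stood above the other 3 libraries. Ifngr1, the ligand-binding chain of the interferon gamma receptor, had 283, 343, 355 and 714 CPM (1.01, 0.76 to 1.25). Its partner chain Ifngr2 had 124, 146, 89.6 and 162 CPM (0.86, 0.35 to 1.37). Cdk6, a kinase of the G1 phase, had 164, 92.9, 168 and 445 CPM (1.40, 1.06 to 1.75). Hif1a, the oxygen-regulated transcription factor, had 164, 144, 149 and 356 CPM (1.25, 0.89 to 1.63). For Ifngr1, Cdk6 and Hif1a too, I-HC32 stood above all others. Tnfaip8 had 152, 169, 135 and 334 CPM (1.31) and Tmem64 had 242, 203, 131 and 328 CPM (1.33). Without mixed barcodes these 7 ratios, from Bcl2 to Tmem64, lay between 0.78 and 1.28. Socs1, an inhibitor of cytokine receptor signals that was chosen after its values were seen, had 86.7, 71.1, 97.5 and 243 CPM without mixed barcodes.

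Slpi, a secreted protease inhibitor of myeloid cells, had the highest Int ratio, with 4.91, 307, 809.9 and 3186 CPM (1.98, 1.83 to 2.12). Without mixed barcodes it had 3.54, 61.4, 25.3 and 124 CPM. A Slpi UMI lay in 3.80%, 30%, 10.2% and 48.1% of naive CD4 T cells and in 5.99%, 39.3%, 9.51% and 55.2% of B cells. The mixed barcodes held most of its level in P-HC24, I-LC32 and I-HC32, and its share of cells with a UMI moved with that of B cells. Their part in the Int ratio was not tested. On the low side of Int stood Igfbp4 and Cd52. Cd52 encodes a short glycoprotein anchored in the lymphocyte membrane, and had 978, 937, 896 and 417 CPM (-1.10, -1.34 to -0.87). I-HC32 stood below the other 3 libraries, and B cells, with 1417, 1246, 1292 and 798 CPM of Cd52, were also lowest there. Rsrp1, Tle4, Cmip and H2aj had -0.77, -0.77, -0.76 and -0.73. Gpx1, a glutathione peroxidase, had -0.87, or -0.13 without mixed barcodes, and Ifitm3, with -1.13, had too few UMIs without them.

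**Figure D4:**
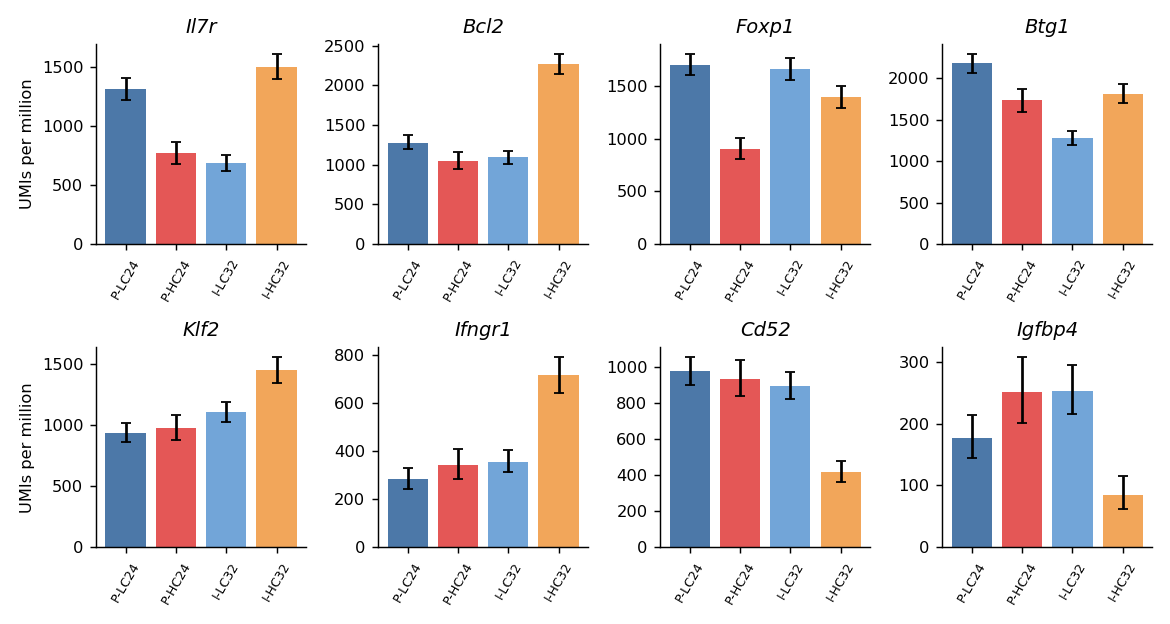
Levels in CPM of Il7r, Bcl2, Foxp1, Btg1, Klf2, Ifngr1, Cd52 and Igfbp4 in naive CD4 T cells by library; bars start at 0 and give the summed UMIs of all cells of a library and error bars are 95% exact Poisson intervals of counting error. Bcl2 and Ifngr1 are highest in I-HC32 (2268 and 714 CPM), Cd52 and Igfbp4 lowest there (417 and 85.0 CPM), and Il7r is high in P-LC24 and I-HC32 (1315 and 1505 CPM).

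These ratios can be set beside those of activated CD4 T cells (Cd4 with Tnfrsf4, Rora or Izumo1r, 58, 52, 143 and 156 cells) and of naive CD8 T cells (306, 328, 336 and 135 cells). Il7r in Int had a log2 ratio of 1.13 in naive CD4, 0.44 (0.32 to 0.56) in activated CD4 and 0.59 (0.49 to 0.69) in naive CD8 T cells. Bcl2 had 1.06, 0.51 (0.40 to 0.61) and 0.55 (0.47 to 0.63). For both genes the counting interval of naive CD4 T cells lay above the others. Ifngr1 had 1.01, 0.35 and 0.94, and Cd52 had -1.10, -0.69 and -0.89. Igfbp4 had -1.57, -1.02 and -0.32. Cdk6 had 1.40, 0.09 and 0.57 in Int and -0.82, 0.94 and -0.16 in Prog, where activated CD4 T cells had the opposite sign. With 1 library per condition, the differences between populations were not tested.

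The lists of related genes describe the same libraries by group, beside a median of -0.14 over all genes in Prog and 0.04 in Int. Over all genes, 506 of 1265 were higher and 759 lower in Prog and 916 of 1663 were higher and 747 lower in Int, and 6.64% and 19.2% were past 1.5-fold in Prog and 6.55% and 4.57% in Int. Of genes of quiescence and survival, 6 of 18 were higher and 12 lower (0 and 3 at least 1.5-fold, median log2 ratio -0.21) in Prog, and 16 of 19 were higher and 3 lower (3 and 0 at least 1.5-fold, median log2 ratio 0.43) in Int. The 3 lower genes of 18 are near the 19.2% of all genes. Klf2, which drives S1pr1, had 934, 974, 1107 and 1449.5 CPM, and Btg1, an antiproliferative factor of resting T cells, had 2181, 1734, 1277 and 1813 CPM. Foxp1, which keeps naive T cells at rest, had 1701, 898, 1659 and 1390.2 CPM (Prog -0.92, -1.11 to -0.74), and Klf3 had 373, 186, 354 and 433 CPM (Prog -1.005, -1.42 to -0.60). P-HC24 was the lowest library for both. Bcl11b, a factor of T cell identity, had 422, 222, 346 and 261 CPM and was also lowest in P-HC24. Mcl1, a survival factor, had 391, 433, 426 and 593 CPM, and Gimap6, of a GTPase family needed for survival of naive T cells, 845, 906, 640.1 and 896 CPM (Int 0.48, 0.29 to 0.68). Of the naive T cell list, 2 of 12 were higher and 10 lower (0 and 4 at least 1.5-fold, median log2 ratio -0.40) in Prog, and 6 of 12 were higher and 6 lower (1 and 1 at least 1.5-fold, median log2 ratio -0.01) in Int. Without the mixed barcodes, 3 were higher and 9 lower in Prog (1 and 2 at least 1.5-fold, median -0.31).

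Of cytokine and homing receptors, 5 of 13 were higher and 8 lower (0 and 5 at least 1.5-fold, median log2 ratio -0.12) in Prog, and 12 of 14 were higher and 2 lower (3 and 0 at least 1.5-fold, median log2 ratio 0.33) in Int. Without the mixed barcodes, 6 of 10 were higher and 4 lower in Prog (0 and 3 at least 1.5-fold, median 0.01). The common gamma chain Il2rg, which pairs with IL7R, had 183, 203, 209 and 237 CPM, and the interleukin 6 receptor Il6ra 132, 81.6, 126 and 142 CPM. Il4ra had 103, 92.9, 81.8 and 117 CPM and Il21r 142, 132, 142 and 154 CPM. The type I interferon receptor chain Ifnar1 had 50.7, 78.8, 51.9 and 92.9 CPM, and Tgfbr2, a receptor for TGF-beta, had 406, 374, 341 and 427 CPM. Itga4, an integrin chain for adhesion to vessels, had 309, 169, 244 and 307 CPM (Prog -0.87, -1.32 to -0.45), and Cxcr4, a chemokine receptor, 129, 81.6, 118 and 85.0 CPM. Without the mixed barcodes the Prog ratio of Itga4 was -1.31 (-1.84 to -0.81). Receptors of effector cells were scarce, with Cxcr3 at 0, 0, 4.72 and 1.98 CPM and Cxcr6 at 0, 0, 6.29 and 3.96 CPM. Ccr6 had no UMI.

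Of the T cell receptor complex and its signalling chain, 3 of 19 were higher and 16 lower (1 and 6 at least 1.5-fold, median log2 ratio -0.41) in Prog, and 17 of 21 were higher and 4 lower (3 and 0 at least 1.5-fold, median log2 ratio 0.28) in Int, where without the mixed barcodes 13 were higher and 8 lower with a median of 0.09. Skap1, an adaptor for adhesion, had the highest level of the list, with 1714, 979.5, 1219 and 1244 CPM (Prog -0.81). The next 4 members were named after their values were seen. Themis, which tunes receptor signals, had 587, 346, 694 and 844 CPM (Prog -0.76). Cd3g, a chain of the receptor complex itself, had 428, 532, 483 and 451 CPM, and Lat, an adaptor, 208, 236, 182 and 198 CPM, both highest in P-HC24. Malt1, a protease of NF-kB activation, had 101, 70.4, 102 and 189.8 CPM (Int 0.89). Of a CD4 lineage list, 0 of 9 were higher and 9 lower (0 and 3 at least 1.5-fold, median log2 ratio -0.45) in Prog, and 8 of 9 were higher and 1 lower (1 and 0 at least 1.5-fold, median log2 ratio 0.22) in Int.

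Genes of respiration and protein synthesis were mostly higher in P-HC24. Over all genes compared in Prog, 506 of 1265 were higher, 84 of them at least 1.5-fold. Of nuclear genes of oxidative phosphorylation, 38 of 41 were higher and 3 lower (8 and 0 at least 1.5-fold, median log2 ratio 0.34), of mitochondrially encoded genes 9 of 12 were higher (median 0.45) and of ribosomal protein genes 60 of 82 were higher (median 0.18). In Int the medians were -0.09, -0.19 and 0.00. Short genes of all kinds had a median of 0.20 in Prog. Of immediate early genes, which respond within minutes to activation or to tissue handling, 9 of 13 were higher (median 0.36) in Prog and 11 of 16 were higher (median 0.28) in Int. Of heat shock genes 5 of 7 were higher (median 0.03) and 7 of 9 were higher (median 0.18), of MHC class I genes 8 of 12 were higher (median 0.23) and 9 of 14 were higher (median 0.08), and of type I interferon-stimulated genes 3 of 7 were higher (median -0.27) and 3 of 7 were higher (median -0.09). Without the mixed barcodes, 2 of 7 interferon-stimulated genes were higher in Prog (median -0.48) and 5 of 7 in Int (median 0.11). Of proteasome genes 4 of 5 were higher (median 0.34) and 5 of 12 were higher (median -0.12), of activation and memory genes 3 of 7 were higher (median -0.39) and 6 of 12 were higher (median 0.01), and of liver X receptor targets 2 of 2 were higher (median 0.12) and 3 of 4 were higher (median 0.25). No gene of sterol synthesis and uptake had enough UMIs to be compared between the diets.

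Among 1244 genes compared in both phases, 82 were at least 1.5-fold higher and 237 lower in Prog, and 70 higher and 48 lower in Int. Of the 1244 genes, 2 were at least 1.5-fold higher in the high cholesterol arm in both phases, and 8 were lower in both. The first were Slpi and Cct4, a subunit of the chaperonin that folds actin and tubulin, with 109.6, 166, 131 and 204 CPM. Among the 8 was Irf1, a transcription factor of interferon responses, with 129, 84.4, 199.7 and 105 CPM (-0.61 and -0.93). Also among them were Dhx15, Fgf13, Ppp4r3b, Bola2, Ccny and Smg6. A further 15 genes were lower in Prog and higher in Int, and 4 were higher in Prog and lower in Int. Without mixed barcodes the counts were 4, 9, 10 and 1 of 1114 genes. The 4 were Adk, Cct4, Tagln2 and Vim, and the 1 was Igfbp4, named after their values were seen. Irf1 then had -0.56 in Prog, under 1.5-fold. Whether the overlaps between phases exceed those expected from the counts of each phase was not tested. I-HC32 mice received 0.05% cholesterol when sampled.

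Activated CD4 T cells were separated from naive ones by the gate, and their values are given without a test. Of 3618 genes, 14 (0.387%) were at least 1.5-fold higher in naive cells in all 4 libraries and 144 (3.98%) at least 1.5-fold lower. Dapl1 had 224, 203, 209 and 178 CPM in naive against 194, 59.7, 89.9 and 61.4 in activated cells. Satb1 had 1931, 1419, 1241 and 1713 CPM in naive against 1142, 501, 582 and 735 in activated cells, and Patj, a polarity scaffold, had 239, 208, 190.3 and 261 CPM in naive against 88.9, 74.0, 113 and 131 in activated cells. Ndrg3, Slc12a7, Gm16083, Igfbp4 and Magi3 had median log2 ratios of 1.31, 1.27, 1.16, 1.13 and 1.11. On the other side, Ikzf2, the factor Helios, had 8.18, 5.63, 7.86 and 15.8 CPM in naive against 280.5, 217, 219.7 and 332 in activated cells. Nkg7, a protein of cytotoxic granules, had 4.91, 8.44, 40.9 and 15.8 CPM in naive against 244, 275, 382 and 266 in activated cells. Tnfsf11, the cytokine RANKL, had 4.91, 8.44, 3.15 and 5.93 CPM in naive against 82.1, 21.5, 54.2 and 131 in activated cells. Nebl, Runx2, Hopx, Niban1 and Farp1 had median log2 ratios of -5.04, -3.72, -3.72, -3.68 and -3.67. Of 24 genes of activation and memory, 18 were lower in naive cells in all 4 libraries, and of 85 ribosomal protein genes 79 were higher, where over all 3618 genes 1023 were lower and 328 higher in all 4. The list medians were -1.65 and 0.28. Il7r, Bcl2 and S1pr1 had median ratios of -0.16, 0.05 and 0.00.

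Naive CD4 and naive CD8 T cells were compared with the 4 libraries as replicates, since their gates differed only in Cd4 and in Cd8a and Cd8b1. With edgeR's quasi-likelihood test and the library as block, 477 of 7968 genes (5.99%) were higher and 469 (5.89%) lower in naive CD4 T cells at an FDR of 0.05. The libraries come from 2 cohorts of mice sampled at both weeks, so p-values measure the spread between libraries and not between animals. Without I-LC32 the counts were 315 and 321. The gate for naive CD8 T cells also let in cells with cytotoxic transcripts. Ccl5, a chemokine of memory CD8 T and NK cells, had 2183, 2472, 4087 and 4732 CPM there, against 13.1, 0, 396 and 199.7 in naive CD4 T cells. In the latter the 252 UMIs of I-LC32 lay in 5 of 98 cells and the 101 of I-HC32 in 4 of 79, so cells with Ccl5 passed that gate as well, and few of them carried its level. The part of memory-like CD8 T cells in the differences was not tested.

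Cd40lg, the ligand by which helper T cells license B cells and dendritic cells, had the highest fold change. It had 204 UMIs in naive CD4 and 11 in naive CD8 T cells, 88.8-fold in CPM (48.6 to 181), with a log2 fold change of 6.38 (edgeR adjusted p = 1.36e-08). Its levels were 132, 101, 75.5 and 77.1 CPM in naive CD4 T cells. Ly6c1 was higher by 5.43 on the log2 scale (edgeR adjusted p = 1.15e-06) and Ly6c2 lower (log2 fold change -5.61), but these are near-identical copies that can share reads. St8sia6, a sialyltransferase, had 195, 115, 165 and 194 CPM against 8.07, 5.36, 7.10 and 12.3 (log2 fold change 4.39, edgeR adjusted p = 7.93e-10). Pdlim4 (4.44), Myo10 (4.75), Ecm1 (3.79) and Arhgap29 (3.61) were also higher, whereas Ctdspl (4.797), Sdc3 (3.86) and Mpeg1 (3.77) were called with the mixed barcodes and had too few UMIs for a test without them. Trat1, whose promoter window is given above, had 159, 127, 134 and 156 CPM in naive CD4 and 18.4, 15.8, 8.45 and 21.8 in naive CD8 T cells (log2 fold change 3.21, edgeR adjusted p = 2.41e-08). Igfbp4 was higher by 2.48 (edgeR adjusted p = 1.33e-07), with 41.0, 38.2, 30.8 and 24.7 CPM in naive CD8 T cells, below naive CD4 T cells in every library. Trib2, a pseudokinase, was higher by 2.41 (edgeR adjusted p = 6.11e-08).

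Most of the 10 lowest genes had no UMI in naive CD4 T cells. Gm44174 had 0 UMIs against 1254, at least 87.3-fold lower when 3 counts are put in place of 0 over all libraries. It lies on chromosome 6 (GRCm39, 71329842 to 71350268, plus strand) between Cd8b1 (71299772 to 71315087) and Cd8a (71350411 to 71356157), and ends 142 bases before Cd8a, which the gate used. Bend4 had 0 against 1039 UMIs, at least 72.3-fold lower. It lies on chromosome 5 (67523138 to 67585653, minus strand), where Gm43698 (0 against 247 UMIs) and Gm26756 (0 against 92) overlap it by 861 and 633 bases on the other strand, so that these 3 are uncertain as separate genes. The killer cell lectin-like receptors Klrc1 (0 against 423 UMIs) and Klra7 (0 against 196) were at least 29.5-fold and 13.6-fold lower, and their relative Klre1 had 1 UMI against 359. Adgrg5, Wdr95 and Gm26827 were at least 10.2-fold, 8.08-fold and 6.82-fold lower.

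Over all 7968 genes tested, 477 (5.99%) were higher and 469 (5.89%) lower, and the counts of lists are to be read beside these shares. By function, of genes of the CD4 lineage 9 of 14 were higher and 2 lower, and of the CD8 lineage 0 of 13 were higher and 12 lower. The following are log2 fold changes. Gata3, a factor of the helper lineage, was higher by 0.72, and Runx3, which silences Cd4, was lower (-1.99). Runx1 was higher by 1.29, with 446, 321, 561 and 577 CPM against 149, 124, 234 and 286. Of naive T cell genes 8 of 16 were higher and 1 lower, among the higher ones Tcf7 (0.33), Satb1 (0.55) and Bach2 (0.50), with Klhl6 lower (-0.42). Of quiescence and survival genes 10 of 27 were higher and 1 lower, with Mcl1 at 0.77 and S1pr1 at 0.64. Of cytokine and homing receptors 4 of 27 were higher and 7 lower. Il2rb, the chain shared by the receptors for interleukin 2 and 15, was lower (-3.43), with 6.54, 19.7, 20.4 and 33.6 against 210.0, 163, 209 and 237 CPM. Ifngr2 was higher by 1.27 and Ifngr1 lower (-0.52), so the chains of 1 receptor differed in opposite directions. Il7r (-0.05, edgeR adjusted p = 0.84), Ccr7 (0.02, edgeR adjusted p = 0.93), Bcl2 (-0.01, edgeR adjusted p = 0.97) and Klf2 (0.19, edgeR adjusted p = 0.082) were not called. Of type I interferon-stimulated genes 7 of 32 were higher and 1 lower, of sterol genes 4 of 17 were higher and 0 lower, of T cell receptor genes 3 of 36 were higher and 3 lower, of activation and memory genes 7 of 32 were higher and 14 lower and of ribosomal protein genes 1 of 80 were higher and 25 lower. With all cells, the counts of T cell receptor genes were near the shares of all genes. Without the mixed barcodes, 7 of 36 were higher and 6 lower, where over all 7781 genes 498 were higher and 570 lower. Of immediate early genes 12 of 24 were higher and 3 lower, and without the mixed barcodes 8 and 6 of 23.

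**Figure D5:**
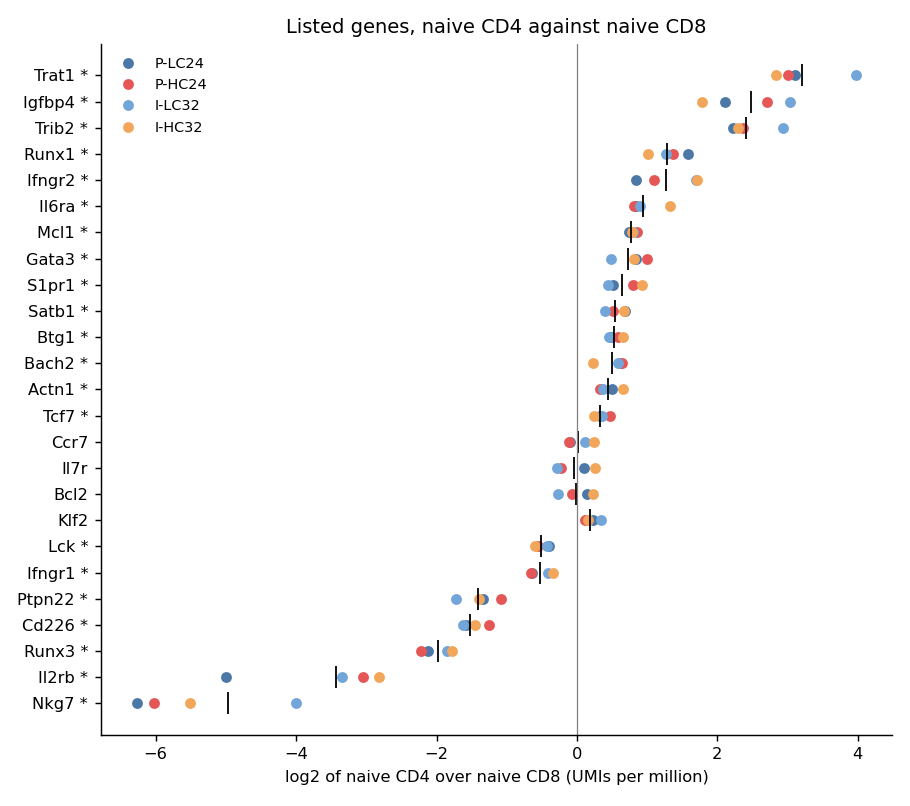
Log2 ratio of naive CD4 over naive CD8 T cells for genes chosen after their values were seen; dots are the 4 libraries, ticks the fitted edgeR log2 fold change, and stars mark an FDR under 0.05. Trat1 and Igfbp4 lie above 0 and Il2rb and Nkg7 below 0 in every library, while the fitted values of Il7r, Ccr7 and Bcl2 lie near 0.

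The cells of 1 library also differed among themselves. The squared deviation of a gene's UMIs from those expected by each cell's depth, relative to counting error, had a median ratio of 1.21 over 5144 genes, and 229 genes stood above 2 in all 4 libraries, or 155 of 4778 without mixed barcodes. At 2000 UMIs per cell, 20 genes did. The 10 highest genes with all cells were Lyz2, Cst3, Malat1, Actb, Cebpb, Gpx1, Timp2, Ftl1, Rps24 and Fos, several of them myeloid. Without the mixed barcodes, Malat1, a nuclear RNA, had ratios of 12.3, 16.3, 18.2 and 18.7, followed by Crip1 with 8.26, 15.9, 10.3 and 10.3. Ecm1, an extracellular matrix protein, had 5.07, 13.1, 5.55 and 7.07, and Bcl2 had 13.1, 5.27, 5.06 and 7.34. The T cell receptor could be followed only in part, since 3′ reads seldom reach the V segment. Trbv segments had 37, 15, 17 and 18 UMIs in 28, 13, 14 and 13 cells, and Trbv2 led with 21 of 87 UMIs (24.1%). Trbv19, Trbv12-2, Trbv13-1, Trbv13-2, Trbv26, Trbv13-3 and Trbv1 had between 4 and 8 UMIs each. Trbc1 gave 33.8% (30.8 to 36.9), 28.7% (25.4 to 32.2), 31.8% (28.9 to 34.8) and 32.0% (28.7 to 35.4) of the UMIs of both beta constant segments, with overlapping intervals.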

How the data were processed

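Single cells of fine needle liver biopsies were measured by 10x 3′ gene expression in 4 libraries, 1 per condition. The authors aligned reads to GRCm39 with Cell Ranger 9.0.1, and the deposited values are raw UMI counts per gene and barcode. The study's methods name Seurat 5.3 and SoupX, but the deposited counts were used here without correction for free RNA.

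Barcodes with at least 500 UMIs, at least 300 genes and at most 10% mitochondrial UMIs were kept, and naive CD4 T cells were gated by transcripts. The 4 libraries held 50941106, 73837023, 79215858 and 89257239 UMIs. Doublets were not removed in the main values, and removal by Scrublet score was an alternative. UMIs of a population were summed per library. Conditions were compared by ratios of depth-scaled UMIs (CPM) with exact conditional 95% intervals, which cover counting error only, for genes with 100 or more UMIs in the pair of libraries that were seen in 10% or more of the cells of one of them. Naive CD4 and naive CD8 sums were compared with edgeR 4.0.16 (TMM, quasi-likelihood, Benjamini-Hochberg adjustment, library as block) in R 4.3.3, with DESeq2 1.42.0 as alternative. On simulated counts of 7633 genes for this comparison, 53.1% of genes altered 2-fold and 95.8% of those altered 4-fold were recovered. The simulated counts were drawn around a common mean per gene, with a fixed dispersion and no library effect. The rates may therefore differ for the measured counts. Python 3.11.15, scipy 1.17.1 and scanpy 1.11.5 served for the rest. Gene spans are those of GENCODE vM39.

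The members and gene lists were chosen with earlier results of these data known. Genes were named as the 8 highest and 8 lowest ratios with at least 200 UMIs in each comparison, up to 8 per direction past 1.5-fold in both, the 10 highest and 10 lowest fold changes against naive CD8 T cells, the 8 highest and 8 lowest against activated CD4 T cells, the 10 with the highest variance ratio, the highest level and ratio of each list, 8 V segments, and the markers with the naive, quiescence and receptor lists. None of these is a gate gene or a mitochondrial, haemoglobin, antigen receptor or antibody gene, except the V segments. The limits for mixed barcodes (at least 20 UMIs over 4 macrophage genes, or at least 10% haemoglobin UMIs) and the comparison of every pair of libraries were chosen after seeing the data. Some genes of these lists are not reported here by name, although they are counted.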

Additional observations from a re-analysis of the deposited data

Results flagged for a closer look

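In 19 genes the high cholesterol library was at least 1.5-fold above the low cholesterol library in one phase and at least 1.5-fold below it in the other. Of the 1244 genes compared in both phases, 82 were at least 1.5-fold higher and 237 lower in Prog, and 70 higher and 48 lower in Int. Whether 19 exceeds the overlap expected from these counts was not tested. With 1 library per condition the difference between phases was not tested. Lower in Prog and higher in Int, with the log2 ratios in that order, were among others Birc3 (-0.64 and 0.88), Cdk6 (-0.82 and 1.40), Il7r (-0.77 and 1.13), Kat2b (-0.91 and 0.62), Lyst (-0.91 and 0.74), Nfkbiz (-0.61 and 0.66), Nin (-0.79 and 0.97), Pde7a (-0.65 and 0.64), Ptges3 (-0.72 and 0.62), Rbm33 (-0.77 and 0.72), Rbms1 (-0.61 and 0.73), Rnf125 (-0.70 and 0.95), Trim12a (-0.88 and 0.73), Zfp281 (-0.82 and 0.86). Higher in Prog and lower in Int were Aldoa_ENSMUSG00000030695 (0.92 and -0.70), Gpx1 (1.65 and -0.87), Mrpl33 (0.60 and -0.59), Psap (1.93 and -0.87). Without the mixed barcodes 8 of the 19 were still past 1.5-fold in opposite directions, among them Cdk6, Il7r, Lyst, Nin, Rbm33, Rnf125 and Zfp281. Igfbp4, at 0.50 and -1.57 with all cells, had 0.67 and -1.61 without them and was then the 1 gene higher in Prog and lower in Int. Psap and Gpx1 are abundant in macrophages, and a macrophage-mixed barcode was present in P-HC24, I-LC32 and I-HC32.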

How the results depend on the processing

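No paired analysis was possible because each condition has 1 library. The difference in the share of naive CD4 T cells, high minus low cholesterol, was -3.03 points over T cells and -6.80 over CD4 T cells in Prog in place of the value over kept barcodes. In Int it was -0.767 with a mitochondrial limit of 5%, -5.52 over CD4 T cells and 1.59 over T cells, where the sign reversed. Of genes higher in Prog, 267 passed 1.2-fold and 18 passed 2-fold, 209 and 30 passed with minimums of 50 and 200 UMIs, 129 with scaling that left out ribosomal and mitochondrial genes, 152 relative to the median gene, 49 at a 5% mitochondrial limit and 35 after thinning to 2000 UMIs. Of genes lower in Prog the counts were 519 and 49 at those folds, 559 and 89 at those minimums, 160 relative to the median gene and 51 after thinning. In Int, the higher genes were 415 and 20, 291 and 40, and 70 after thinning, and the lower ones 283 and 12, 221 and 20, and 29 after thinning. Thinning left 380 and 687 genes to compare, and the Prog median log2 ratio turned from -0.14 to 0.05. Against activated CD4 T cells, 5 genes were higher and 45 lower after thinning, and 20 genes had a variance ratio over 2. Genes higher than in naive CD8 T cells by edgeR numbered 187 without the library block, 292 at a 5% mitochondrial limit, 210 after thinning and 315 to 450 with 1 library left out. Genes lower numbered 302 with DESeq2, 743 without a filter, 225 without the block, 259 after thinning and 321 to 406 with 1 library left out. Of genes named between conditions, 672 of the values kept their size within counting error and 44 did not. A further 3 reversed in Int, namely Slpi at -2.74 after doublet removal, which took the mixed barcode of one library only, and Ifitm3 at 0.73 and Apoe at 0.90 as means over cells. The cause of the other shifts, that of the Prog median included, was not tested. With 50 to 98 cells a library, genes under the minimum of UMIs were not detectable as different at this depth.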
